A study of Mus musculus with 4 samples.

Results

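The cells described here are the 4280 tumor macrophages that the authors' deposited cell table places in the cluster Macrophage and the sub-cluster M1, of 10363 macrophages, 12648 non-malignant cells and 31611 cells in all. They were chosen by that annotation alone, and each cell was assigned to its mouse by the start of its cell name. The M1 cells numbered 1095 and 712 in vehicle mice 1 and 2, and 1307 and 1166 in digoxin mice 1 and 2. The other macrophages carried the labels M2 (4786 cells) and Highly proliferative M2 (1297 cells).

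Tumors of a murine sarcoma allograft model, taken from the hind limb, were dissociated and profiled by droplet single-cell RNA sequencing of 3′ ends. The vehicle group was 2 mice injected with PBS into the peritoneum, and the digoxin group was 2 mice given digoxin by the same route at 2 mg/kg, from a DMSO stock brought to volume with PBS. Digoxin is a cardiac glycoside that inhibits the sodium-potassium pump. Injections were given every 24 h, and tumors were collected after dose 4. Every sample carries the same genotype label, which includes Trp53flox/flox, conditional alleles of the tumor suppressor p53, on the strain 129/SvJae. Macrophages in such a tumor are cells of the host mouse, the labels give no age or sex, and all 4 tumors went through 45 min of enzymatic digestion at 37 °C.

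Macrophages of tumors arise in large part from blood monocytes, which enter the tissue, lose monocyte genes and take on tissue programs. The M1 label is borrowed from cultured macrophages stimulated with interferon-gamma and bacterial products, which make interleukin-1, nitric oxide and chemokines and present antigen on MHC class II. The M2 label is borrowed from macrophages stimulated with interleukin-4, which express scavenger and mannose receptors and arginase, and macrophages in tissue seldom match either state fully.

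The M1 cells held a median of 12918 to 14702 unique molecular identifiers (UMIs, the molecule counts) a cell by mouse, and their UMIs summed to between 9497100 in vehicle mouse 2 and 19927360 in digoxin mouse 1. All levels below are counts per 1000000 UMIs (CPM) computed in each cell and averaged over the M1 cells of a mouse, given in the order vehicle mouse 1, vehicle mouse 2, digoxin mouse 1, digoxin mouse 2. Vehicle mouse 2 stood apart in its host: its M1 cells had no UMI of Xist (596, 0, 665 and 624 CPM) and were the 1 set with high Y-linked Ddx3y (1.45, 81.4, 1.69 and 1.84 CPM). By these genes vehicle mouse 2 had the pattern of a male host and the other mice that of female hosts. Host sex was therefore not balanced between the groups, and its part in the values below was not tested. Of the 4280 M1 cells, 27 (0.631%) had a barcode that was also present in another library, and the doublet caller Scrublet marked 2 M1 cells, against 1377 of all 31611 cells. Among genes of other cell types, the summed level of 9 tumor and stromal markers in M1 cells was 222, 245, 180 and 287 CPM, led by Col3a1, and that of 10 T and NK cell markers was 14.5, 9.27, 7.88 and 25.02 CPM.

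Of the 4 genes that mark these cells, Il1b, encoding the cytokine interleukin-1 beta, carried the label. It stood at 3011, 3067, 3147 and 3375 CPM in M1 cells, 5.78 to 8.91 times its level in the M2 cells of the same mouse. Il1b UMIs were present in 75.3 to 80.8% of M1 cells when each cell was thinned to 5000 UMIs, against 32.9 to 37.8% of M2 cells and 15.1 to 31.3% of T cells. Unthinned, the M1 shares were 82.3 to 84.3%. Nos2, the inducible nitric oxide synthase that defines M1 macrophages in culture, was low at 7.54, 3.34, 23.8 and 18.8 CPM, though it was lower still in M2 cells, at 0.137 to 0.680 CPM.

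At 5000 UMIs a cell, Nos2 UMIs were found in 18 of 1088 M1 cells of vehicle mouse 1 (1.65%, exact 95% binomial interval 0.983 to 2.60%) and in 9 of 704 of vehicle mouse 2 (1.28%, 0.586 to 2.41%). The shares were 4.02% (3.01 to 5.23%) in digoxin mouse 1 and 3.98% (2.93 to 5.27%) in digoxin mouse 2. These intervals cover counting error only. Without thinning, the shares were 3.47, 1.54, 5.74 and 5.92%. T cells, which served as the background for free RNA, had 1 Nos2-positive cell in 93 in vehicle mouse 2 (1.08%) and none in the other mice, where 0 of 166, 0 of 133 and 0 of 112 cells allow shares of up to 1.81, 2.26 and 2.68% by 3 counts of the total, or 2.20, 2.74 and 3.24% by the exact interval. M2 cells of the same libraries had lower shares, at 2 of 936 in vehicle mouse 1 (0.214%) and 1 of 1507 in vehicle mouse 2 (0.0664%). Nos2 is 1 of the 4 genes that mark the M1 cells and cells are not replicates. The lower M2 shares are therefore a description and no test against background. The few T cells allow shares as high as those of the vehicle M1 cells. Most cells that carry the M1 label had no detected Nos2.

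General macrophage markers were present in M1 cells at levels above or below those of M2 cells, depending on the gene. Of 10 macrophage identity genes, 4 stood above M2 in each mouse (19.3% of all genes compared) and 3 below (50.1%), with a median ratio of 0.999. Csf1r, the receptor for the growth factor CSF1, stood at 411, 503, 383 and 347 CPM in M1 cells and at 659 to 902 CPM in M2 cells. Adgre1, which encodes the F4/80 antigen, stood at 180.1, 169.7, 166 and 149.6 CPM against 377 to 475 CPM. Fcgr1, a high-affinity Fc receptor, ran the other way, at 388, 421, 325 and 465 CPM against 193 to 260.1 CPM. These comparisons between sub-clusters, and the ones that follow, describe how the authors' clusters differ and carry no test, because the clusters were made from the same genes.

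The genes with the highest ratio of M1 to M2 included some that are high in circulating monocytes. Among 2822 genes with at least 50 CPM in M1 cells, 143 (5.07%) were at least 2-fold above M2 in every mouse, and among 2998 genes with at least 50 CPM in M2 cells, 117 (3.9%) were at least 2-fold below. The highest ratio was that of Ly6c2, a surface protein of inflammatory monocytes, at 368, 339, 249 and 419.9 CPM in M1 cells against 1.15 to 9.51 CPM in M2 cells, at least 44.1 times higher in each mouse. Plac8, also high in monocytes, stood at 1114, 851, 886 and 1126 CPM, at least 20.3 times its M2 level. Hp, encoding haptoglobin, which binds free hemoglobin, was at least 23.2 times higher, and Napsa, an aspartic protease of lysosomes, at least 18.9 times higher. The same 15 leading genes included the secreted protease inhibitor Slpi, the decoy interleukin-1 receptor Il1r2, the chitinase-like protein Chil3, the macrophage elastase Mmp12, coagulation factor F10, the interferon-induced Rsad2 and Ifit3, and Ly6i, AA467197, Mcemp1 and Cyp4f18.

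The 10 genes lowest in M1 cells relative to M2 cells included 3 of the scavenger and resident-like list, Lyve1, Gas6 and Cbr2. Lyve1, a hyaluronan receptor of perivascular macrophages, stood at 47.1, 26.0, 27.8 and 43.2 CPM in M1 cells against 326 to 534 CPM in M2 cells. Gas6, a ligand that bridges macrophages to dying cells, stood at 68.5, 47.9, 50.1 and 62.7 CPM against 381 to 492 CPM. The other 8 of the 10 lowest ratios belonged to Fcrls, Rcn3, Npl, Gpr34, Cbr2, Stard8, Smagp and the complement gene C4b, each at no more than 0.207 times its M2 level in every mouse.

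The gene lists of the M1 and M2 programs were also compared between the sub-clusters, again as a description. All 25 interferon-stimulated genes compared stood above M2 in each of the 4 mice, where 19.3% of the 11478 genes compared did, and their median ratio of M1 to M2 was 6.51. So did 11 of 12 monocyte genes (median ratio 8.68), all 11 genes of MHC class II and costimulation (2.76), 13 of 15 innate sensing receptors and signalling genes (1.62), and 19 of 22 genes of hypoxia and glycolysis (1.99). Of 18 scavenger and resident-like genes, 16 stood below M2 in each mouse, where 50.1% of all genes did, with a median ratio of 0.230. The alternative activation genes ran against the label: 8 of 12 compared stood above M2 in each mouse and 1, the interleukin-4 receptor chain Il4ra, below, with a median ratio of 3.09. Among the 8 were Chil3, Mgl2, Ccl17 and the transglutaminase Tgm2, the last at 241, 164, 289.7 and 229 CPM in M1 cells against 107 to 126 CPM in M2 cells. All 15 S phase genes and 15 of 16 genes of G2 and mitosis also stood below M2 in each mouse.

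**Figure D1:**
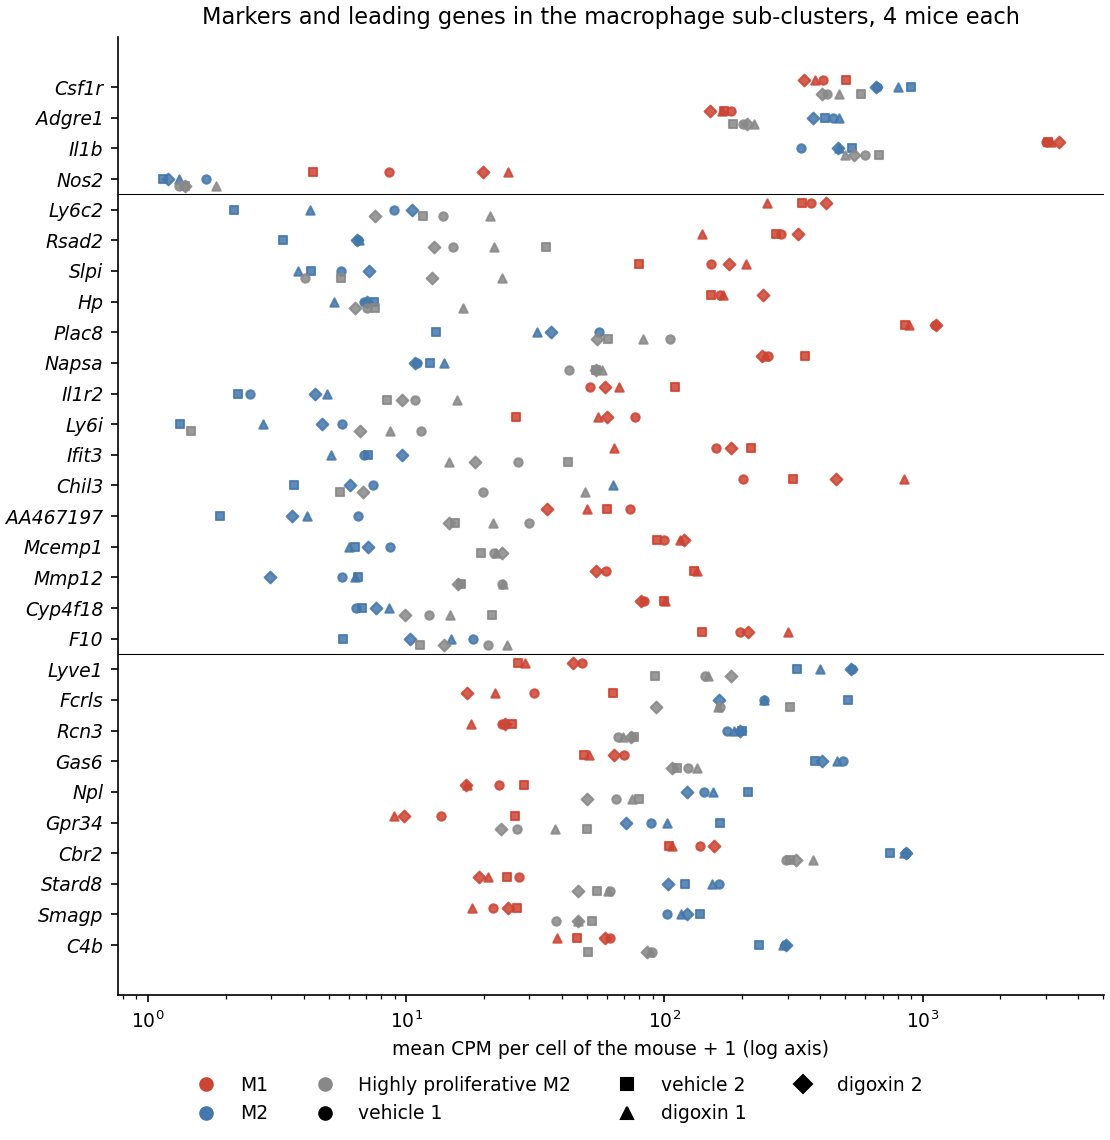
Levels of the 4 marker genes (top), the 15 genes with the highest (middle) and the 10 with the lowest M1 to M2 ratio (bottom), as mean CPM per cell plus 1 on a log axis; colors are sub-clusters and symbols are mice. Il1b lies between 3011 and 3375 CPM in M1 cells of all 4 mice, Nos2 stays below 25 CPM, and Ly6c2 in M1 cells lies apart from both M2 sub-clusters.

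Cells with the M1 label were not uniform. At 5000 UMIs a cell, Arg1, the arginase that is usually taken to mark M2 macrophages, was found in 45.4, 21.7, 51.7 and 37.3% of M1 cells, and Mrc1, the mannose receptor, in 60.7, 60.8, 60.9 and 52.5%. M2 cells had Arg1 in 68.1, 33.6, 44.4 and 36.7% and Mrc1 in 96.3 to 97.3%. The M1 share of Mrc1 was thus lower in every mouse, while the mean Arg1 level was higher in M1 cells in every mouse. In T cells the shares were 4.22 to 11.3% for Arg1 and 14.5 to 22.6% for Mrc1, so both M1 shares stood above this background, though T cells held fewer UMIs (a median of 7244 to 8232). The unthinned M1 shares were 53.8, 27.1, 57.8 and 43.1% for Arg1 and 72.5, 71.5, 73.8 and 65.7% for Mrc1. Ly6c2 was found in 28.8, 18.5, 24.6 and 29.0% of M1 cells, against 0.199 to 2.67% of M2 cells and 29.0 to 43.4% of T cells, many of which express it themselves. Cxcl9, an interferon-gamma-induced chemokine for T cells, was found in 20.7, 7.39, 13.1 and 19.6% of M1 cells, against 2.41, 2.15, 4.51 and 10.7% of T cells and 12.3, 2.46, 7.24 and 8.46% of M2 cells, so that the M1 share was the highest of the 3 in each mouse. Unthinned, the M1 shares were 36.8, 23.0, 33.9 and 37.7% for Ly6c2 and 28.9, 9.83, 17.6 and 24.9% for Cxcl9.

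Arg1 and Ly6c2 tended to lie in different M1 cells. In M1 cells with Arg1 UMIs, 15.4, 5.23, 14.5 and 10.2% also had Ly6c2, against 39.9, 22.1, 35.5 and 40.1% of M1 cells without Arg1. Spp1, encoding the matrix glycoprotein osteopontin, went the other way, found in 55.1, 68.6, 55.8 and 61.8% of Arg1-positive cells against 25.6, 31.4, 23.0 and 32.0% of the others. Hmox1, the heme-degrading heme oxygenase 1, was found in 50.6, 51.6, 60.4 and 66.4% of Arg1-positive cells against 21.8 to 25.1% of the others. In T cells of the same libraries, Spp1 was found in 18.7, 8.60, 16.5 and 17.9% and Hmox1 in 6.02, 6.45, 9.77 and 10.7%, below the Arg1-negative M1 cells too, and over all M1 cells the unthinned shares were 54.1 to 57.4% for Spp1 and 47.5 to 59.3% for Hmox1. Each difference had the same direction in all 4 mice, and each is a description of cells that share a library.

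Variation from M1 cell to M1 cell was measured as the Fano factor, the variance over the mean of thinned UMIs, over 1263 genes with at least 0.5 UMI a cell, whose median in the least variable mouse was 1.20. After Gm42418, a gene model that overlaps ribosomal RNA, the 5 most variable genes in every mouse's lowest value were Spp1 (at least 52.0), the ferritin chains Fth1 (50.6) and Ftl1 (50.3), the monocyte attractant Ccl8 (41.8) and the platelet factor Pf4 (40.5). Hmox1, the lipid carrier Apoe, the MHC class II invariant chain Cd74, lysozyme Lyz2 and the chemokines Cxcl10, Cxcl2 and Cxcl9 followed. The Fano factor was not adjusted for the mean, and these genes differ widely in level. By mouse, the mean was 68.8 to 82.0 thinned UMIs a cell for Fth1 and 58.9 to 70.8 for Lyz2. For Spp1 it was 3.98 to 6.02, so the order is not one of variation at equal level.

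The share of M1 cells among macrophages was 45.3% in vehicle mouse 1, 29.0% in vehicle mouse 2, 47.6% in digoxin mouse 1 and 42.5% in digoxin mouse 2. Vehicle mouse 2 was low and had the highest share of M2 cells, 61.5%, while vehicle mouse 1 lay between the digoxin mice. The vehicle mean was 37.1% ± 11.5 (SD, n = 2) and the digoxin mean 45.1% ± 3.55 (SD, n = 2), a difference of 7.91 percentage points with an exact two-sided permutation p of 0.667. With 2 mice a group the smallest p such a test can give is 1 in 3. Without vehicle mouse 2 the difference was -0.235 points. Among non-malignant cells the shares were 36.1, 23.6, 39.1 and 35.8%, a difference of 7.58 points (exact permutation p = 0.667), and 1.34 points without vehicle mouse 2.

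**Figure D2:**
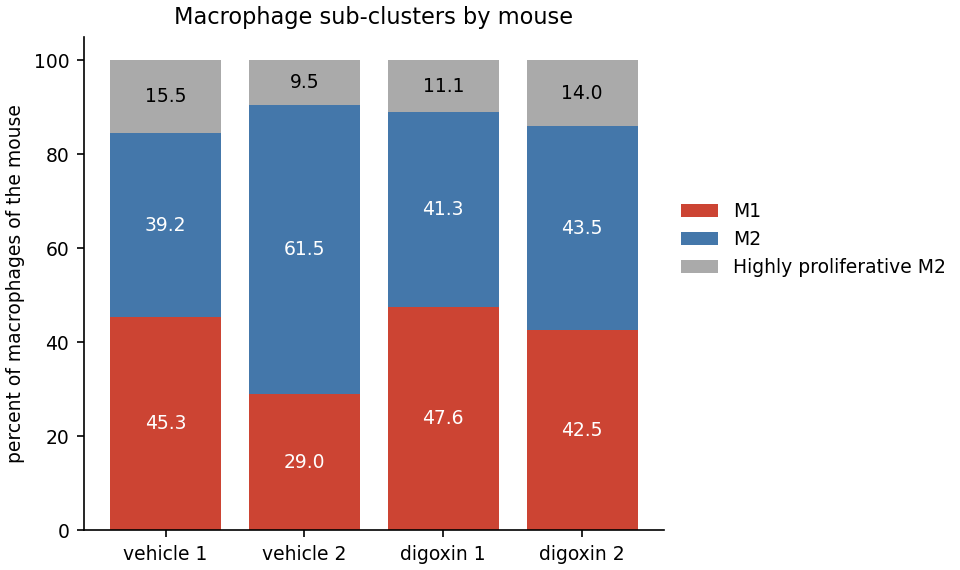
Stacked bars give the percent of each mouse's macrophages by the authors' label, Highly proliferative M2, M2 or M1. The M1 share runs from 29.0% in vehicle mouse 2 to 47.6% in digoxin mouse 1, and the vehicle and digoxin mice overlap.

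M1 cells with at least 2 UMIs of the 16 G2 and mitosis genes, at 5000 UMIs a cell, made up 12.96, 15.2, 11.5 and 18.2%, below the 26.1 to 37.8% of M2 cells. The digoxin mice lay on both sides of the vehicle mice, and the means differed by 0.792 points (14.1% ± 1.58 and 14.9% ± 4.76, SD, n = 2 each, exact two-sided permutation p = 1). The shares depended on the cutoff: they were 45.4, 39.7, 39.3 and 54.97% without thinning, a difference of 4.54 points, and 4.23, 6.25, 4.02 and 6.83% for at least 3 UMIs, a difference of 0.183 points. Leaving out 1 mouse moved the difference between -2.57 points, without digoxin mouse 2, and 4.16 points, without digoxin mouse 1. No member of the S phase list or of the G2 and mitosis list reached an unadjusted p under 0.05 in the gene test that follows. In that test 3.72% of all genes were higher and 4.01% lower at this threshold. Both digoxin mice lay above both vehicle mice in 1 of 15 S phase and 2 of 16 G2 and mitosis genes (15.3% of all genes). They lay below in 2 and 0 (24%).

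No gene in M1 cells passed the test of digoxin against vehicle after adjustment over all 12182 genes tested (limma on log2 of mean CPM plus 1, Benjamini-Hochberg threshold 0.05). At an unadjusted limma p under 0.05 stood 942 genes (7.73%), 453 of them higher (3.72%) and 489 lower (4.01%) with digoxin. In 1869 genes (15.3%) both digoxin mice lay above both vehicle mice, and in 2923 (24%) both lay below. These shares include genes at low levels. Among genes with a mean of at least 20 CPM, sex-linked genes left out, the directions were near equal. There 956 lay above and 977 below in both mean CPM and CPM of summed UMIs. The shares of all genes printed beside the lists are not matched for level. On UMIs summed per mouse, edgeR's quasi-likelihood test called 0 genes (882 at an unadjusted p under 0.05), limma-voom called 0, and DESeq2 called 42 of 10528 genes with an adjusted p (0.399%), of which 40 were higher. Leaving out a mouse in limma gave 224 calls without vehicle mouse 1, 0 without vehicle mouse 2, 94 without digoxin mouse 1 and 32 without digoxin mouse 2, where the lone mouse left in a group is assumed to vary like the other group. The genes below are therefore given as levels with the range in which the mice lay, and not as changes.

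Mmp19, a matrix metalloprotease, had the smallest p. It stood at 75.3, 64.0, 169 and 168 CPM, so that both digoxin mice lay far above both vehicle mice, with a log2 difference of 1.27 ± 0.11 (SE) and an adjusted p of 0.142 (limma). DESeq2 on the summed UMIs called it, with an adjusted p of 8.33e-13, while edgeR did not, with an adjusted p of 0.120. The order was not particular to M1 cells. Both digoxin mice also lay above both vehicle mice in M2 cells, where Mmp19 stood at 33.9, 34.0, 51.4 and 68.0 CPM. It held in Highly proliferative M2 cells too, at 30.9, 23.3, 69.4 and 62.4 CPM.

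Another of the 12 genes with the smallest p among those higher with digoxin acts on matrix. Thbs1, encoding the matrix glycoprotein thrombospondin 1, stood at 1097, 768, 1770.1 and 1866 CPM (log2 difference 0.98 ± 0.17 SE, limma adjusted p = 0.464). The vehicle and digoxin mice did not overlap, and DESeq2 called it, with an adjusted p of 8.75e-05 for Thbs1. Thbs1 had the same order at lower levels in M2 cells, at 172, 220, 272 and 282 CPM. In Highly proliferative M2 cells it stood at 141, 179, 222 and 198 CPM, again without overlap.

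Egln1, an oxygen sensor that marks HIF for degradation, stood at 34.0, 32.9, 61.6 and 69.3 CPM (0.95 ± 0.11 SE, limma adjusted p = 0.196). Arg2, the mitochondrial arginase, stood at 21.0, 17.1, 37.0 and 38.7 CPM (0.96 ± 0.14 SE, limma adjusted p = 0.353). In both genes the digoxin mice lay above the vehicle mice. In M2 cells the groups overlapped for Egln1, at 42.6, 27.7, 41.6 and 47.2 CPM, and for Arg2, at 3.77, 2.25, 2.19 and 2.95 CPM. In Highly proliferative M2 cells Egln1 stood at 36.4, 27.0, 45.1 and 48.9 CPM, without overlap. The others of the 12 included Sgms2, a sphingomyelin synthase, at 12.9, 10.8, 30.0 and 32.5 CPM, the nuclear lamin gene Lmna, the cytochrome P450 reductase Por, the MYC antagonist Mxi1, the heat shock gene Hspa1a, Sh3bp5 and S100a8, with log2 differences from 0.55 to 1.76.

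S100a8 and its partner S100a9 encode calprotectin, which is most abundant in neutrophils, and both lay higher in the digoxin mice. S100a8 stood at 15.4, 9.68, 52.7 and 36.4 CPM and S100a9 at 1.08, 2.47, 19.8 and 10.7 CPM. M1 cells with UMIs of 2 or more of 5 neutrophil genes (S100a8, S100a9, Retnlg, Cxcr2, Ly6g) numbered 3, 3, 50 and 26, or 0.274, 0.421, 3.83 and 2.23%. Of these, Ly6g was below 0.2 CPM in every mouse, and the summed level of the 7 neutrophil markers was 92.1, 84.7, 155 and 124 CPM. The 7 did not move as one. Of 6 tested, 4 had both digoxin mice above both vehicle mice (15.3% of all genes) and 1 had both below (24%). Csf3r, the highest of the 7 at a mean of 45.0 CPM, lay lower in both digoxin mice. Because S100a8 and S100a9 help define these cells, leaving the cells out is no check of either gene. M2 cells also had more such cells in both digoxin mice, with 0.527, 0.397, 2.29 and 1.34%, and the part of free RNA or of neutrophils in these values was not tested.

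The 12 genes with the smallest p among those lower with digoxin had log2 differences between -0.80 and -0.48, and each had an adjusted p of 0.464 (limma). Ly86, which encodes MD-1, a partner of the innate receptor RP105, stood at 209, 234, 161 and 156 CPM (-0.48 ± 0.10 SE). Ptger4, a receptor for prostaglandin E2, stood at 35.6, 32.8, 22.6 and 16.3 CPM (-0.80 ± 0.17 SE). Ccl17, a chemokine that attracts T cells through CCR4, stood at 39.8, 42.3, 27.0 and 26.9 CPM (-0.59 ± 0.11 SE). That order did not hold when M1 cells with lymphocyte or stromal markers were left out, where the log2 difference of Ccl17 was 0.29. That exclusion took away 61.3, 59.7, 48.1 and 69.7% of the M1 cells, nearly all for stromal markers. The others were the apoptosis genes Bcl2 and Pmaip1, the interleukin-21 receptor Il21r, the ribonuclease Rnase6, and Tifab, Sash3, Themis2, Rasgef1b and Extl3. In these 12 genes the vehicle and digoxin mice did not overlap, as the rule required, and DESeq2 called none of them.

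**Figure D3:**
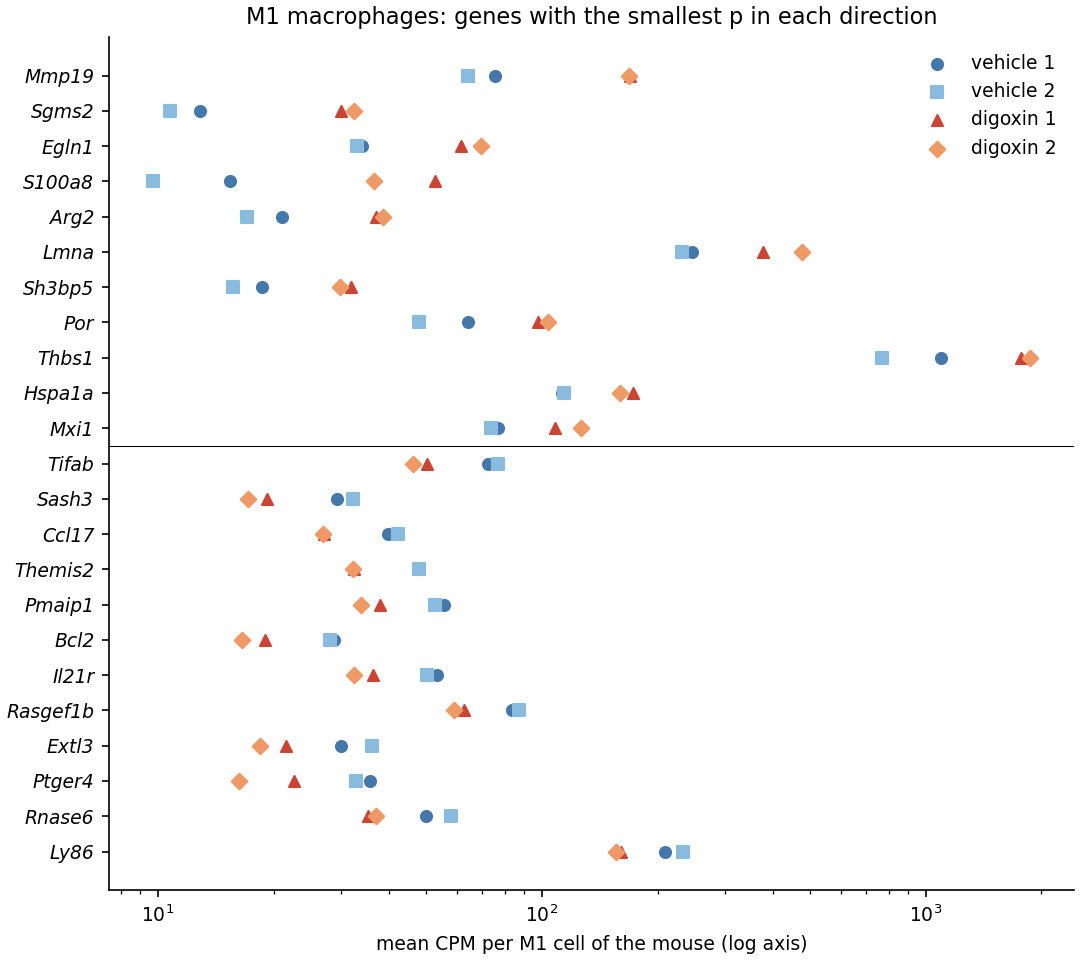
Mean CPM per M1 cell of each mouse on a log axis, for 11 of the 12 genes with the smallest p among those higher with digoxin (above the line) and the 12 among those lower (below it). By the rule of choice the vehicle and digoxin mice do not overlap in any gene shown, as in Mmp19 with 64.0 and 75.3 against 168 and 169 CPM.

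Chemokines that attract neutrophils or are carried by platelets were higher in both digoxin mice for every member measured. All 6 genes of the list had both digoxin mice above both vehicle mice, where 15.3% of all genes did, and all 6 had an unadjusted limma p under 0.05, where 3.72% of all genes did in that direction. Their median log2 difference was 1.14, against -0.02 over all genes. Cxcl1, Cxcl2 and Cxcl3 encode ligands of the neutrophil receptor CXCR2 and lie side by side in the mouse genome with Ppbp and Pf4. The windows from 250 bases before to 50 bases after the start of these 3 genes, from RefSeq on GRCm38.p6, are shown because each holds the same run of letters at a similar place. Capitals mark matches to the NF-kB consensus, the binding site of a factor family that inflammatory signals activate.

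Cxcl1, chr5:90890995-90891294, plus strand: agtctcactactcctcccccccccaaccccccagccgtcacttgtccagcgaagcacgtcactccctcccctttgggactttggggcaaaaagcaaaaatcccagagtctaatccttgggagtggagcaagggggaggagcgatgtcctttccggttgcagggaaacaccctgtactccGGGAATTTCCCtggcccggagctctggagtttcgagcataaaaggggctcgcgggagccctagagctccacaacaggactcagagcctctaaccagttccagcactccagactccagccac
Cxcl2, chr5:90903649-90903948, plus strand: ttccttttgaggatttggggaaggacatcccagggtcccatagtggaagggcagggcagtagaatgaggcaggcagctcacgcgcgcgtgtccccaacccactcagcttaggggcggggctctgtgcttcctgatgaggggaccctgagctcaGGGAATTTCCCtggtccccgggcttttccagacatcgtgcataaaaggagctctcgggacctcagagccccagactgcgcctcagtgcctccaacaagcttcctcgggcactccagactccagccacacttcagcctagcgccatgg
Cxcl3, chr5:90785851-90786150, plus strand: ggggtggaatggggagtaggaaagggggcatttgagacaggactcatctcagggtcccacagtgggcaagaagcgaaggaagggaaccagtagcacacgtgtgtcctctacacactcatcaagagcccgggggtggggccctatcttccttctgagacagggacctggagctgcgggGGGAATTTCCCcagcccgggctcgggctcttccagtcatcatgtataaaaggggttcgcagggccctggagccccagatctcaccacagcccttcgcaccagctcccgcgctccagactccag

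The run in capitals is a pair of overlapping matches, on both strands, and its first base lies 71 bases before the start of Cxcl1, 97 before that of Cxcl2 and 73 before that of Cxcl3. The consensus was searched on both strands of every window of this length in the table, and 4.51% of 32851 windows held a match. Ppbp and Pf4 have windows without one, and Cxcl5 has none in the table. A match is a description of letters, and binding was not measured.

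The levels of these chemokines separated the groups to different degrees. Cxcl3 stood at 253, 62.5, 617 and 521 CPM in M1 cells and at no more than 14.6 CPM in M2 cells, with a log2 difference of 2.16 ± 0.55 (SE). Cxcl2 was by far the most abundant, at 5918, 4098, 7841 and 7973 CPM (0.68 ± 0.20 SE), and Cxcl1 stood at 628, 304, 881 and 912 CPM (1.04 ± 0.30 SE). In all 3 genes vehicle mouse 2 was the lowest and both digoxin mice lay above vehicle mouse 1 as well, by less than they lay above vehicle mouse 2.

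Pf4, or platelet factor 4, stood at 1089, 509.6, 1847 and 1676 CPM (1.24 ± 0.31 SE), and Ppbp, whose product is cut to the CXCR2 ligand NAP-2, at 33.7, 4.16, 53.0 and 87.0 CPM (2.37 ± 0.78 SE). Cxcl5, another CXCR2 ligand, was barely present at 2.91, 2.02, 8.64 and 3.37 CPM. The limma adjusted p was above 0.05 for each of the 6, and DESeq2 called Cxcl2 only, with an adjusted p of 0.0353. Without each mouse in turn, the median log2 difference of the 6 ran from 0.71, without vehicle mouse 2, to 1.67, without vehicle mouse 1. Leaving out a mouse cannot make groups that lie apart overlap, so these fits show only how the size of the difference changed. Without cells with 2 neutrophil markers the median was 1.17.

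Interleukin-1 and other inflammatory cytokines showed less separation. Il1b itself differed by a log2 value of 0.10 ± 0.12 (SE), with both digoxin mice above both vehicle mice by little. Il1a stood at 53.8, 16.9, 92.8 and 57.5 CPM (1.24 ± 0.49 SE), and Tnfsf9, the ligand of the T cell receptor 4-1BB, at 70.1, 61.9, 83.5 and 82.5 CPM (0.33 ± 0.11 SE). Of 10 members tested, 2 had an unadjusted limma p under 0.05, both higher (3.72% of all genes), and 4 had both digoxin mice above both vehicle mice (15.3% of all genes). Tnf, at 71.4, 47.1, 79.9 and 75.8 CPM, and Il6, at 39.3, 10.6, 49.4 and 28.2 CPM, were lowest in vehicle mouse 2.

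Among 16 NF-kB subunits and feedback genes, 2 had an unadjusted p under 0.05 (limma), both higher, where 3.72% of all genes were, and 4 had both digoxin mice above both vehicle mice, where 15.3% did. The first 2 were Nfkbia, which encodes the inhibitor IkB-alpha, at 1262, 905, 1509.6 and 1705 CPM, and the mitochondrial superoxide dismutase Sod2, at 233, 158, 256 and 260.2 CPM. Of the 5 subunits, Nfkb1 had a log2 difference of 0.23, at 168, 144, 173 and 194 CPM, Rela, Rel and Nfkb2 lay between 0.00 and 0.06, and Relb was at -0.16.

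Genes of nitric oxide and arginine use were led by Nos2, whose levels of 7.54 and 3.34 CPM with vehicle and 23.8 and 18.8 CPM with digoxin did not overlap. Its log2 difference was 1.86 ± 0.31 (SE), not called by limma and called by DESeq2 with an adjusted p of 3.63e-04. Arg1 stood at 982, 396, 1818 and 987 CPM (1.10 ± 0.44 SE), so that vehicle mouse 1 and digoxin mouse 2 differed by little. Arg2, given above, was the third of 8 members with an unadjusted p under 0.05 that were higher (3.72% of all genes), and none was lower. The synthase for arginine Ass1 and the lyase Asl had log2 differences of 0.03 each.

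Most MHC class II genes lay lower in both digoxin mice, though vehicle mouse 1 and digoxin mouse 1 lay close together. Of 11 genes of MHC class II and costimulation, 7 had both digoxin mice below both vehicle mice, where 24% of all genes did, and 5 had an unadjusted limma p under 0.05 and were lower, where 4.01% of all genes were. The median log2 difference was -0.55. H2-Aa encodes an alpha chain and H2-Eb1 a beta chain of different MHC class II molecules. Their windows are shown because both hold the Y box, a motif of MHC class II promoters. The letters CTGATTGG were searched on both strands and occur in 4.10% of the 32851 windows. In H2-Aa the Y box is the second run of capitals, 51 bases before the start, and the first run is an NF-kB consensus match that begins 131 bases before it. In H2-Eb1 the Y box begins 62 bases before the start. These are 2 of the 6 genes of the list that have a window, and the windows of H2-DMa, H2-DMb1, H2-DMb2 and Cd80 do not hold these letters.

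H2-Aa, chr17:34287774-34288073, minus strand: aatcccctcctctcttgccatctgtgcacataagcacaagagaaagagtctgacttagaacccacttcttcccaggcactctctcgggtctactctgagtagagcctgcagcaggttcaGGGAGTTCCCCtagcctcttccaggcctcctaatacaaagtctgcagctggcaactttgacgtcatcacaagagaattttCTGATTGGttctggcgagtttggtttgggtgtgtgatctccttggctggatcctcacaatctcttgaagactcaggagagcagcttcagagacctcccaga
H2-Eb1, chr17:34305617-34305916, plus strand: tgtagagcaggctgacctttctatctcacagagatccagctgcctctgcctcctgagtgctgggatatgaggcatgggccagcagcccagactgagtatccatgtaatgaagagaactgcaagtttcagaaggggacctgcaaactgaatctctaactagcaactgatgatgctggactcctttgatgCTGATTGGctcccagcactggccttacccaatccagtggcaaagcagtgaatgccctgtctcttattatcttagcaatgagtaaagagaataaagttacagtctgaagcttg

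H2-Aa stood at 4223, 6129.5, 3929 and 2741 CPM (log2 difference -0.63 ± 0.24 SE), and H2-Eb1 at 4483, 7133, 4096 and 2999 CPM (-0.69 ± 0.25 SE). In both genes vehicle mouse 2 was high and digoxin mouse 2 low, and the gap between vehicle mouse 1 and digoxin mouse 1 was small beside those. H2-Ab1 followed the same order at 4972, 7136, 4644 and 3381 CPM. Ciita, the coactivator that switches on these genes, stood at 136, 192, 107 and 55.0 CPM (-1.07 ± 0.30 SE), and H2-DMb2, part of the peptide loader, at 40.1, 61.8, 32.4 and 21.1 CPM (-0.90 ± 0.25 SE).

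Cd74, the invariant chain, stood at 12123, 17194, 11416 and 8529 CPM. The costimulatory Cd80 ran opposite to the class II genes, at 68.0, 51.6, 73.9 and 83.3 CPM (0.40 ± 0.15 SE), and was the 1 member with an unadjusted p under 0.05 (limma) that was higher (3.72% of all genes). The count of lower members with an unadjusted p under 0.05 depended on single mice: it was 1 without vehicle mouse 2 (2.68% of all genes were lower in that fit), 2 without digoxin mouse 2 (2.84%), 9 without vehicle mouse 1 (7.78%) and 8 without digoxin mouse 1 (3.65%). H2-Ab1 UMIs were found in 84.7, 87.2, 82.6 and 69.5% of M1 cells at 5000 UMIs (90.1, 91.7, 89.5 and 79.8% unthinned), against 24.7 to 38.3% of T cells.

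Markers of dendritic cells, which also carry much MHC class II, were low in M1 cells and in sum lower in both digoxin mice. The summed level of the 7 genes was 26.7, 30.1, 21.8 and 21.3 CPM. Of 6 tested, 3 had both digoxin mice below both vehicle mice (24% of all genes) and 2 had an unadjusted limma p under 0.05 and were lower (4.01% of all genes). Cd209a, a lectin of monocyte-derived dendritic cells, stood at 2.40, 2.27, 0.861 and 0.108 CPM, and the transcription factor gene Zbtb46 at 1.97, 1.62, 1.06 and 0.743 CPM, while Xcr1 and Clec9a, which define a dendritic subset, stayed below 1 CPM in every mouse. The part of dendritic cells in the MHC class II values was not tested.

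Genes of hypoxia and glycolysis, many of them targets of the oxygen-regulated factor HIF, lay mostly higher in the digoxin mice. Of 22 members, 14 had both digoxin mice above both vehicle mice (15.3% of all genes) and 1 had both below (24%), and 9 had an unadjusted limma p under 0.05, all higher (3.72% of all genes). The 9 became 5 without digoxin mouse 1 (3.82% of all genes in that fit) and 13 without vehicle mouse 1, where the share of all genes rose as well, to 9.07%. The median log2 difference was 0.25. Ero1l, an oxidase of the endoplasmic reticulum, stood at 82.1, 77.1, 172 and 111 CPM (0.79 ± 0.19 SE). Slc2a1, the glucose transporter GLUT1, stood at 113, 104, 169.7 and 139 CPM (0.50 ± 0.13 SE), and Egln3, a HIF-induced prolyl hydroxylase, at 12.9, 12.8, 32.4 and 19.2 CPM (0.91 ± 0.23 SE).

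In these 3 genes digoxin mouse 1 was the highest. The others with an unadjusted p under 0.05 were Egln1, given above, the glycolytic enzymes Pgk1 and Aldoa, the stress gene Ndrg1, the mitophagy receptor Bnip3 and the collagen hydroxylase P4ha1, with log2 differences from 0.25 to 0.95 for the 9. Hif1a stood at 328, 275, 384 and 326 CPM, so that vehicle mouse 1 lay between the digoxin mice, and Vegfa at 212, 127, 265 and 193 CPM, where the groups also overlapped. Hilpda, a lipid droplet gene and HIF target that DESeq2 called and that stands on no list, stood at 212, 179, 443 and 298 CPM.

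Heme, iron and antioxidant genes had 13 of 17 members with both digoxin mice above both vehicle mice (15.3% of all genes), and none with both below. An unadjusted limma p under 0.05 was reached by 8, all higher (3.72% of all genes), by 5 without vehicle mouse 2 (2.57%) and by 12 without vehicle mouse 1 (9.07%), and the median log2 difference was 0.47. Hmox1 stood at 800.3, 422, 1331 and 936 CPM (0.94 ± 0.30 SE), Txnrd1, a thioredoxin reductase, at 123, 87.3, 151 and 162 CPM (0.59 ± 0.16 SE), and Slc7a11, the cystine importer, at 138, 85.6, 172 and 155 CPM (0.58 ± 0.21 SE). In all 3 genes vehicle mouse 2 was the lowest. The ferritin light chain Ftl1 stood at 10623, 8448, 13424 and 13026 CPM, one of the highest levels of any gene in M1 cells. Without vehicle mouse 2 the median of the list was 0.23, and without vehicle mouse 1 it was 0.69.

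Of 17 matrix proteases and matrix-linked genes, 7 had an unadjusted limma p under 0.05, all higher (3.72% of all genes), with a median log2 difference of 0.19 for the list. Beside Mmp19 and Thbs1 they included Spp1, at 953, 801, 1199.6 and 1200.5 CPM, the urokinase receptor Plaur, at 365, 390.1, 464 and 534 CPM, the sheddase Adam8, at 195, 123, 295 and 241 CPM, and the neutrophil-type collagenase Mmp8. Mmp12, among the leading M1 genes, did not separate the groups, at 58.2, 129.6, 133 and 53.2 CPM. The count of higher members was 6 to 8 when each mouse was left out in turn (2.33 to 9.07% of all genes), and the median was 0.36 without vehicle mouse 2 or digoxin mouse 1 and 0.30 without digoxin mouse 2.

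Immediate early and dissociation genes, which tissue digestion is known to induce, went in both directions. Of 18 members, 6 had an unadjusted limma p under 0.05 and were lower (4.01% of all genes) and 3 were higher (3.72%), and the median was -0.14. Without digoxin mouse 2 the lower count was 2 (2.84% of all genes) and the median -0.0042, and without digoxin mouse 1 the median was -0.28. Atf3, a stress-induced repressor, stood at 379, 426, 284 and 204 CPM (-0.74 ± 0.16 SE), and Jun at 335, 402, 285 and 209 CPM (-0.59 ± 0.17 SE). The 3 higher ones were Ier3, an NF-kB target, and the heat shock genes Hspa1a and Hspa1b. All 4 tumors had the same stated digestion, and its part in these values was not tested.

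The interferon-stimulated genes, which set M1 apart from M2, did not separate digoxin from vehicle. None of 25 had an unadjusted p under 0.05 (limma; 3.72% of all genes were higher and 4.01% lower), and 1 had both digoxin mice above both vehicle mice (15.3% of all genes). Digoxin mouse 1 was low in most of them: Ifit3 stood at 157, 215, 62.8 and 181 CPM, Isg15 at 474, 612, 289 and 637 CPM, and Rsad2 at 282, 271, 138 and 329.6 CPM. The list's median log2 difference of -0.19 was 0.20 without digoxin mouse 1 and -0.49 without digoxin mouse 2, where 13 members had an unadjusted p under 0.05 and were lower (2.84% of all genes in that fit). Without vehicle mouse 1 the direction of such members was the opposite, with 6 higher (9.07% of all genes) and 0 lower. The interferon-gamma-induced Cxcl9, at 516, 194, 371 and 473 CPM, was lowest in vehicle mouse 2.

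Other chemokine and receptor genes gave single members that lay apart. Of 12 CC chemokines, 4 had an unadjusted limma p under 0.05, all lower (4.01% of all genes): Ccl5, at 229, 376, 91.2 and 206 CPM, Ccl4, at 323, 305, 199.8 and 264 CPM, Ccl12, at 561, 535, 286 and 471 CPM, and Ccl17. In CPM of summed UMIs the groups overlapped for Ccl5, and not for Ccl4, Ccl12 and Ccl17. Among innate receptors, the C-type lectins Clec4d, at 201, 123, 299 and 347 CPM (log2 difference 1.03 ± 0.22 SE), and Clec4e, at 253, 161, 325 and 374 CPM (0.78 ± 0.20 SE), lay higher with digoxin, as did Trem1, Nlrp3 and Cd14, 5 of 15 members at an unadjusted p under 0.05 (3.72% of all genes), with none lower. DESeq2 called Clec4d (adjusted p = 0.00239) and Clec4e (adjusted p = 0.0499).

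Genes of the monocyte program did not move as one. Ly6c2 stood at 368, 339, 249 and 419.9 CPM and overlapped between the groups, and Ccr2, the receptor for monocyte entry, at 625, 659, 551 and 359 CPM, lower in both digoxin mice (-0.53 ± 0.19 SE). Vcan, a proteoglycan of monocytes, at 89.4, 43.8, 142 and 208 CPM, was higher in both (1.44 ± 0.33 SE), as were S100a4 and S100a6. Of 12 monocyte genes, 3 had an unadjusted limma p under 0.05 and were higher (3.72% of all genes), and 1 was lower (4.01%). Among the fractalkine receptor Cx3cr1 and the T cell costimulator Tnfsf8, the 2 genes that DESeq2 called lower, Cx3cr1 stood at 131, 195, 93.2 and 87.0 CPM and Tnfsf8 at 3.88, 7.30, 1.47 and 0.751 CPM.

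**Figure D4:**
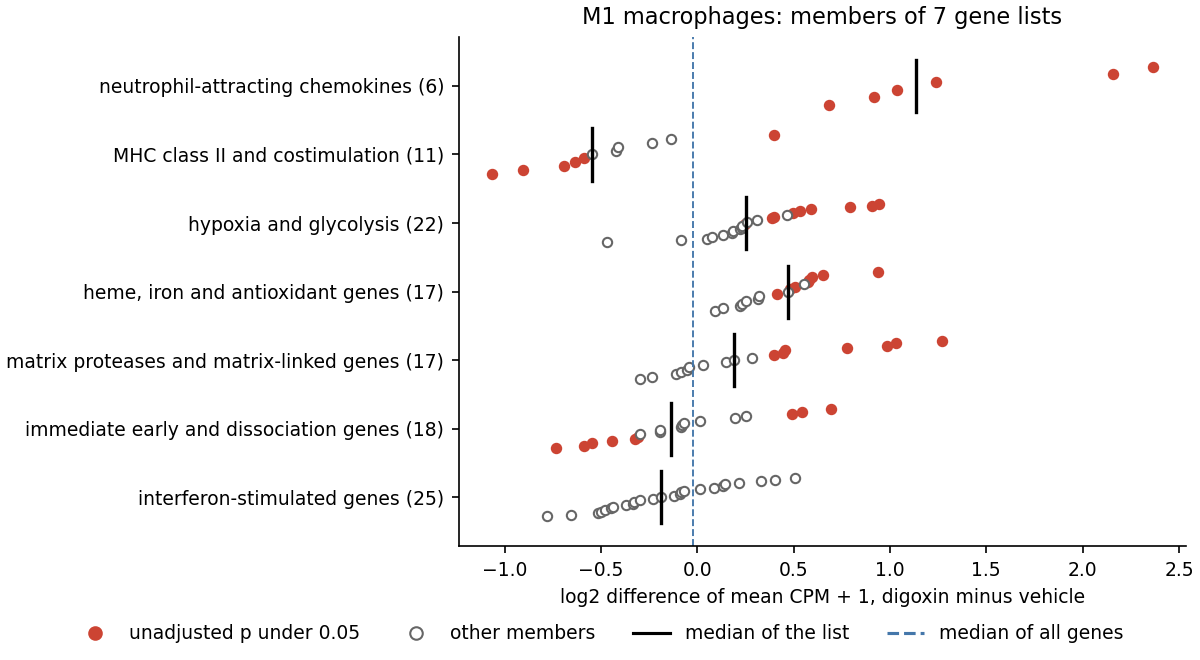
Each point is a gene, placed by its log2 difference between digoxin and vehicle in M1 cells; the number of genes tested is in parentheses, filled points have an unadjusted limma p under 0.05, black bars are list medians and the dashed line is the median of all genes. The 6 genes of the list named neutrophil-attracting chemokines, which also holds the platelet factor Pf4, all lie to the right with a median of 1.14. Of the 11 MHC class II and costimulation genes 10 lie to the left, and the 25 interferon-stimulated genes lie on both sides.

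Whether digoxin-treated M1 cells differed from vehicle in another way than the other macrophages of the same tumors was tested as a difference of effects, with the mouse as a block. Against M2, 0 of 11932 genes passed the adjusted threshold with limma (706, or 5.92%, at an unadjusted p under 0.05), and 0 with edgeR. The smallest p belonged to Arg1, which was higher with digoxin in M1 cells and stood at 649, 211, 399 and 260.5 CPM in M2 cells, a difference of effects of 1.30 ± 0.13 (SE, log2; limma adjusted p = 0.0808). Fn1, encoding fibronectin, stood at 1627, 1265, 1946 and 1589.7 CPM in M1 cells and at 1008, 857, 655 and 564 CPM in M2 cells, a difference of 0.91 ± 0.10 (SE; limma adjusted p = 0.0808). The next 3 were Bnip3, Tmem176b and Sgms2. Without vehicle mouse 1, 250 genes passed, without vehicle mouse 2, 13, without digoxin mouse 1, 0, and without digoxin mouse 2, 5.

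Against Highly proliferative M2 cells, 9 of 11327 genes (0.0795%) passed with limma, where 815 (7.2%) had an unadjusted p under 0.05, and 0 passed with edgeR. Fn1 stood at 951, 874, 661 and 508 CPM in Highly proliferative M2 cells, lower in both digoxin mice, and the difference of effects was 0.95 ± 0.10 (SE; limma adjusted p = 0.00555, edgeR adjusted p = 0.0787). Arg1 stood at 471, 202, 485 and 289.6 CPM in those cells, a difference of 0.82 ± 0.09 (SE; limma adjusted p = 0.00586). Apoe ran the other way, with 605, 2506, 770.4 and 1017 CPM in M1 cells and 546, 2043, 1337 and 1455 CPM in Highly proliferative M2 cells, a difference of -0.88 ± 0.11 (SE; limma adjusted p = 0.00744).

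The spread of Apoe between the vehicle mice was larger than its distance between the groups in both kinds of cell. Rgs1, a regulator of G protein signals, stood at 205, 338, 179 and 153 CPM in M1 cells and 129, 192, 197 and 164 CPM in Highly proliferative M2 cells (-0.85 ± 0.10 SE; limma adjusted p = 0.00598). The other 5 were the B cell attractant Cxcl13, the phosphatidylserine receptor Timd4, the NK receptor gene Klrd1, H2-Oa and the eosinophil attractant Ccl24. Timd4, Klrd1 and H2-Oa stayed below 27 CPM in every mouse, and Cxcl13 had no UMI in the M1 cells of vehicle mouse 2. The number of genes that passed was 439 without vehicle mouse 1, 53 without vehicle mouse 2, 6 without digoxin mouse 1 and 17 without digoxin mouse 2. Without digoxin mouse 1, 7 of the 9 lost the call, Fn1 and Cxcl13 being the 2 that passed.

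**Figure D5:**
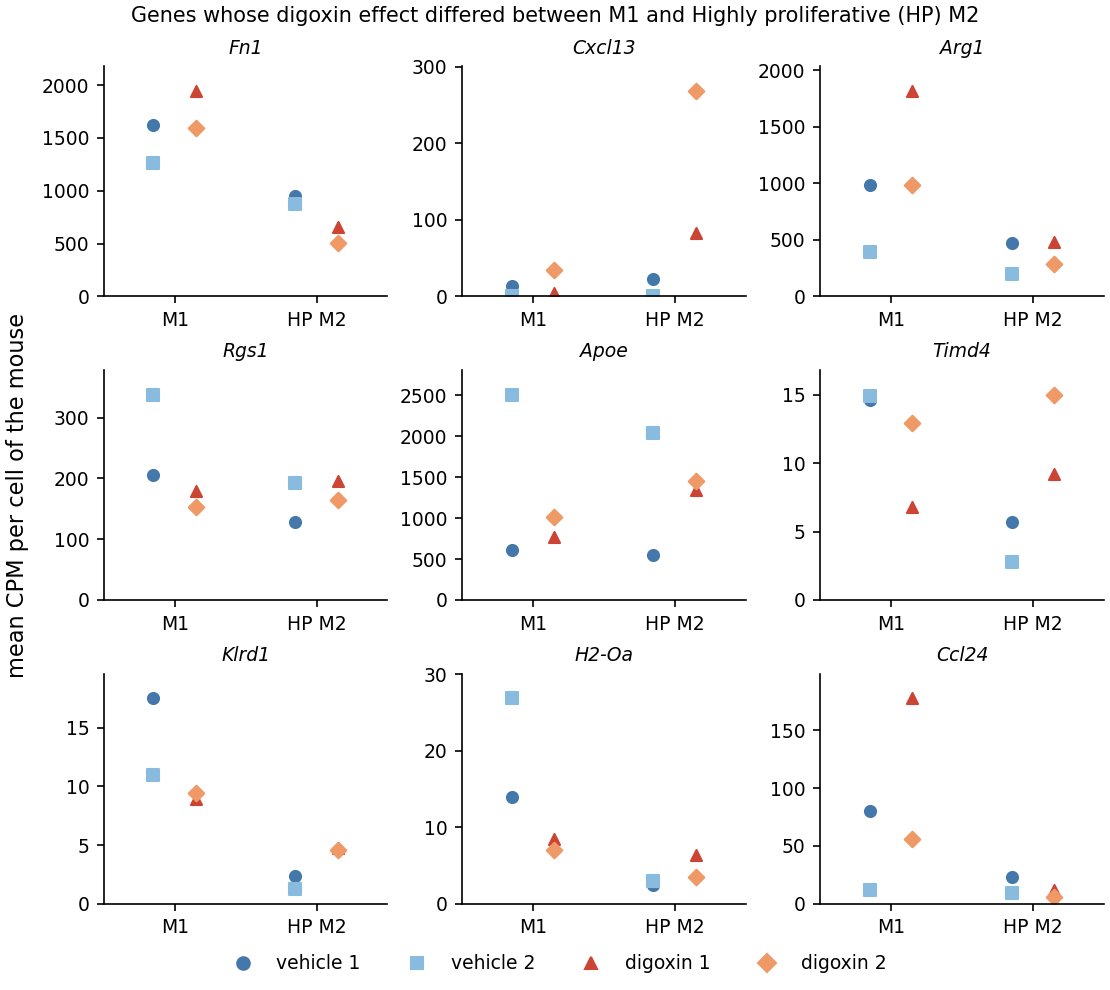
Mean CPM per cell of each mouse in M1 and Highly proliferative M2 (HP M2) cells, on axes that start at 0, for the 9 genes whose digoxin effect differed between them at a limma adjusted p under 0.05. Fn1 lies lower with digoxin in HP M2 cells and not in M1 cells (661 and 508 against 951 and 874 CPM), while in Apoe vehicle mouse 2 lies far above vehicle mouse 1 in both.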

How the data were processed

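Droplet 3′ single-cell RNA libraries of 4 tumors were processed with Cell Ranger 3.0.2, Seurat 3.0.2 and mm10, per the submitters' processing notes. The deposited matrices hold, on the natural log scale, 1 plus the UMIs per 10000 UMIs of the cell, though they are named as counts. The deposited cell tables give UMI counts and gene counts per cell with the authors' clusters. UMIs were recovered from these values as whole numbers (within 0.01) that summed to the tabulated counts in every cell.

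CPM were averaged over the M1 cells of each mouse, and log2(mean CPM + 1) was tested with limma 3.58.1 (R 4.3.3) after edgeR's expression filter, 2 mice against 2, with Benjamini-Hochberg adjustment over all genes. The alternatives were edgeR 4.0.16, limma-voom and DESeq2 1.42.0 on summed UMIs, other pseudocounts, filters and cell exclusions, and each mouse left out. The log2 differences are on the scale with a pseudocount of 1 and understate low genes. Differences of effect against M2 and Highly proliferative M2 used the mouse as a block. The fits of digoxin against vehicle and of the differences of effect were tested on simulated counts with known changes. The simulated mice of a group varied little, so this checked that the fits ran as meant. It gives no rate of false or missed calls for these data. Doublets were marked with Scrublet, run through scanpy 1.11.5, and were kept in the main values. Exact tests and intervals used scipy 1.17.1. Detection per cell was compared after thinning to 5000 UMIs, which left out 7 to 12 M1 cells a mouse.

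The named genes are the 12 in each direction with the smallest limma p among those with a mean of at least 20 CPM and no overlap between the groups, the 15 with the highest and 10 with the lowest M1 to M2 ratio, and members of the gene lists. S100a9, Hilpda, Cx3cr1, Tnfsf8 and list members named although they overlapped were chosen after their values were seen. The M1 cells, the lists and the tests were chosen with earlier results of these data known. A further conditional allele in the genotype label and some genes of the lists are not reported here.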

Additional observations from a re-analysis of the deposited data

Results flagged for a closer look

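For 9 genes the difference between digoxin and vehicle was not the same in M1 cells as in Highly proliferative M2 cells of the same mice, by a limma test of the difference itself (log2 effect in M1 minus effect in Highly proliferative M2). The difference was 0.95 for Fn1, 0.82 for Arg1 and 2.36 for Ccl24, whose M1 effects lay above those of Highly proliferative M2. It was -0.85 for Rgs1, -0.88 for Apoe, -1.58 for Klrd1, -1.86 for H2-Oa, -1.95 for Timd4 and -2.83 for Cxcl13, whose M1 effects lay below. The limma adjusted p ran from 0.00555 for Fn1 and Cxcl13 to 0.0421 for Klrd1, H2-Oa and Ccl24, and edgeR's from 0.0787 to 0.472. The Cxcl13 value depends on the pseudocount, because the M1 cells of vehicle mouse 2 had no UMI of it. Ccl24 stood at 80.4, 11.8, 178 and 55.7 CPM in M1 cells and 23.2, 9.43, 12.1 and 6.06 CPM in Highly proliferative M2 cells, so that its M1 values overlapped between the groups.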

How the results depend on the processing

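The number of genes called in M1 cells was 42 with DESeq2 and 0 to 224 when 1 mouse was left out. The cause was not tested, and the lone mouse left in a group is assumed to vary like the others. For the difference against M2 the number was 0 to 250 when 1 mouse was left out. Against Highly proliferative M2 it was 0 with edgeR, 15 with a pseudocount of 5, and 6 to 439 when 1 mouse was left out. The difference in the M1 share of macrophages ran from -0.235 to 16.1 points when 1 mouse was left out, and that of non-malignant cells from 1.34 to 13.8 points. The difference in the share with G2 and mitosis UMIs ran from -2.57 to 4.16 points when 1 mouse was left out (-0.328 without vehicle mouse 1), and was 4.54 points without thinning. Mice of the same number did not deviate together (r = -0.0304 over 12182 genes), and the fit with the replicate number as a block called 0 genes. Of 1185 alternative values for 66 single results in M1 cells, 1 turned its direction, Ccl17 at 0.29 without cells with lymphocyte or stromal markers. DESeq2 put 17 of the 66 past the threshold. The named genes among the 66 were chosen because the groups did not overlap. For such genes leaving out a mouse cannot turn the direction, so the low number of turns was largely fixed in advance. Against Highly proliferative M2, 19 of 63 alternative values no longer passed. With 2 mice a group, the exact tests of shares cannot reach 0.05 at any depth.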

Other observations

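Genes of lipid handling lay partly higher with digoxin in M1 cells. Of 14 members, 7 had both digoxin mice above both vehicle mice (15.3% of all genes) and 4 had an unadjusted limma p under 0.05, all higher (3.72% of all genes), with a median log2 difference of 0.25. They were the lipid droplet coat gene Plin2, at 259.8, 246.8, 388 and 304 CPM, the fatty acid binding protein Fabp5, at 528, 389, 637 and 584 CPM, the cholesterol exporter Abca1, at 101, 127, 149 and 138 CPM, and Gpnmb, at 20.8, 11.7, 31.5 and 22.0 CPM. Among 11 lysosomal cathepsins, 1 had an unadjusted p under 0.05 (limma) and was higher, where 3.72% of all genes were: Ctsl, at 919, 695, 1439.9 and 1205 CPM, and DESeq2 called it with an adjusted p of 0.0116.

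Alternative activation genes went both ways, with 1 of 13 members higher (3.72% of all genes) and 2 lower (4.01%) at an unadjusted limma p under 0.05, so that the higher count is near that of all genes. Chil3 stood at 199.8, 312, 845 and 460.5 CPM, and Mgl2, a lectin induced by interleukin-4, at 277, 347, 203 and 97.4 CPM. Of 18 scavenger and resident-like genes, F13a1, which encodes a subunit of clotting factor XIII, was the 1 member with an unadjusted p under 0.05 (limma), higher as 3.72% of all genes were, at 483, 312, 563 and 596 CPM.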
